A study of Arabidopsis thaliana with 6 samples.

Results

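The comparison described here is that of the mutant allele camta3-1 with the wild type in Arabidopsis thaliana. It rests on 4 of the 6 arrays of the series, which were chosen by their titles as camta3-1 (2 arrays) or wild type (2 arrays), and on all 22746 probe sets that are not array controls, out of 22810. The plants of both groups were 3 weeks old, and the arrays of a group are labelled biological replicates. Total RNA was purified on columns, labelled with biotin and hybridised to Affymetrix arrays, on which a probe set is a group of short oligonucleotides that reads 1 transcript or several closely related ones. The labels name no treatment, and they do not state the type of mutation, the background accession, the growth conditions or the organ. The remaining pair of arrays, from the allele camta3-2, entered the estimate of the spread and the comparison between the alleles.

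CAMTA3 is a transcription factor that binds calmodulin, the protein that senses calcium inside the cell, and recognises short CG-rich elements in promoters. It is known as a repressor of defence genes that depend on salicylic acid, and plants without it are known for raised defence and reduced growth. Members of its family are also known to take part in the induction of cold-response genes. Defence of this kind runs from receptor kinases at the cell surface and immune receptors inside the cell, through calcium signals and WRKY transcription factors, to secreted proteins such as chitinases, which break down fungal cell walls.

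All values are on the log2 scale, so a difference of 1 is a 2-fold change. Array medians lay between 6.18 and 6.26. The correlation over probe sets was 0.993 between the camta3-1 arrays, 0.995 between the wild-type arrays and 0.986 to 0.989 between a camta3-1 and a wild-type array. CAMTA3 has no probe set with its name in the annotation, so the mutant label could not be set against the level of the mutated gene. The family members AT1G67310, AT4G16150 and AT3G16940, which encode CAMTA4, CAMTA5 and CAMTA6, had differences of -0.04, 0.04 and -0.19 between camta3-1 and wild type, and none passed the test. As a check on the organ, the leaf gene RCA, which encodes rubisco activase, read 13.83 and 13.90 in wild type and 13.90 and 13.93 in camta3-1. The root hair gene EXPA7 read 4.53 and 4.56 in wild type against 4.37 and 4.33 in camta3-1. PYK10, a root beta-glucosidase gene and the other measured root marker, read 5.92 and 6.73 in wild type against 6.44 and 6.36 in camta3-1. None of the listed flower or seed markers was measured by a named probe set.

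Both camta3 alleles had an array that stood apart in some genes of the anther and of the tapetum, the cell layer that feeds developing pollen. Of 28 such genes, listed after the values were seen, 7 were measured, and 4 were at least 2-fold higher in camta3-1 replicate 2 than in replicate 1, while 1 of the 7 was that far apart between the wild-type arrays. AT1G66850 read 5.25 and 7.92 in camta3-1 replicates 1 and 2 against 5.20 and 4.20 in wild type. ATA27, an anther-specific beta-glucosidase gene, read 3.60 and 7.50 in camta3-1 replicates 1 and 2 against 3.49 and 3.43 in wild type. The pattern was the same in SHT, which encodes an enzyme of the pollen coat and read 4.04 and 6.45 against 4.20 and 4.07. It differed in AT5G07230, also among the 4, which read 6.15 and 7.91 in camta3-1 and 7.21 and 5.25 in wild type. In camta3-2 AT5G07230 read 7.33 and 7.53. AMS was nearly level, at 4.44 and 4.55 in camta3-1 and 4.54 and 4.28 in wild type. Over all 22746 probe sets, 77 were at least 2-fold higher in camta3-1 replicate 2 than in replicate 1. The levels of all 7, summed on the linear scale, were 196 and 842 in the camta3-1 arrays, 278 and 148 in the wild-type arrays, and 279 and 1089 in the camta3-2 arrays. Replicate 2 was the high array in both alleles. None of the 7 genes passed the test for camta3-1, and the part of this difference in the results below was not tested. Without camta3-1 replicate 2 the comparison gave 305 probe sets higher and 28 lower.

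Of the 22746 probe sets, 246 differed between camta3-1 and wild type at an adjusted p of 0.05 (limma with Benjamini-Hochberg adjustment), which is 1.08%, and these are the probe sets referred to as called. There were 183 higher in camta3-1 (0.805%) and 63 lower (0.277%). At an unadjusted p of 0.05 the number was 2772 (12.2%). The rises were also larger than the falls. The median log2 fold change was 1.56 among the probe sets that rose and -0.91 among those that fell, against -0.04 over all tested. A change of at least 4-fold was found for 54 that rose and 3 that fell. The count depended on single wild-type arrays, since without wild-type replicate 1 it was 2 and without replicate 2 it was 38. It was 114 without camta3-1 replicate 1. Of 49 called genes named by rule below, 48 lost the call without wild-type replicate 1 and 43 without replicate 2, and their values are given for the fit of all arrays.

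**Figure D1:**
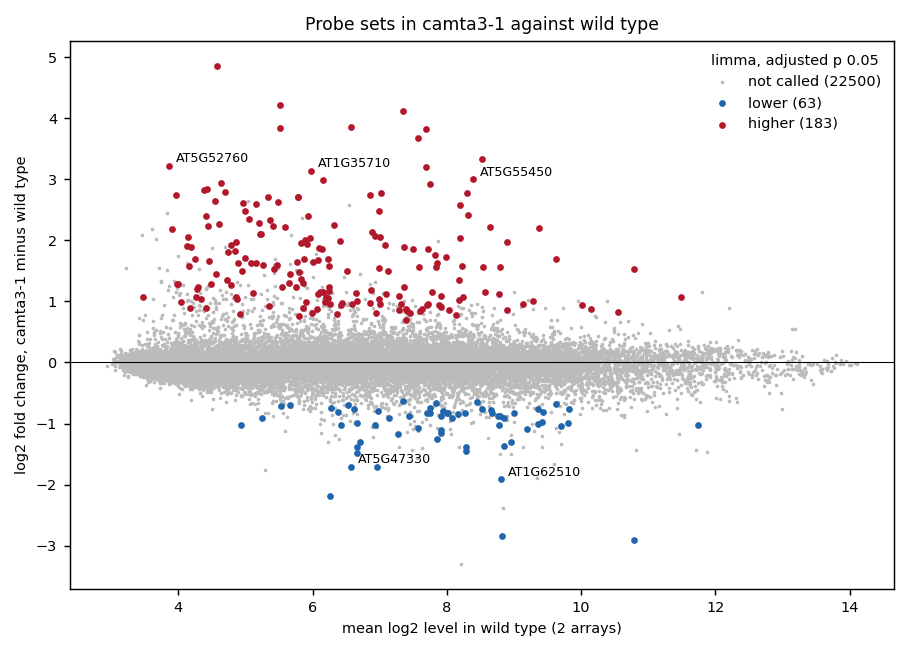
Each point is 1 of 22746 probe sets, with the mean log2 level in the 2 wild-type arrays on the horizontal axis and the log2 fold change of camta3-1 against wild type on the vertical axis. Red points are the 183 that rose, blue points the 63 that fell, and the rises reach 4.86 while the falls reach -2.91.

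Rises and falls also lay at different levels. The median wild-type level was 6.15 for the probe sets that rose and 7.94 for those that fell, against 6.22 over all tested. Of the 183 rises, 95 started below that overall median in wild type, and of the 63 falls only 4 did. The wild-type mean is part of the difference that was tested, and a dim probe set has little room to fall. The split by level therefore follows in part from the choice of probe sets. Both camta3-1 arrays lay above both wild-type arrays in all 183 rises, where 16.2% of all probe sets did so. Both lay below in all 63 falls, where 29.1% of all probe sets did so. The calls were made on these same array values, so such a separation all but follows from that choice and is no further evidence. Because these are whole-plant or organ extracts, fewer cells of a type and less RNA per cell cannot be told apart in any of these values.

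The annotation paired 13513 probe sets with 1 gene, and 107 of these passed (0.792%), of which 76 rose and 31 fell. A role was written down for 38 of the 76 rises and 14 of the 31 falls, after their values were seen, so the groups below describe the named genes and are no independent evidence of a direction. Among the genes with a role, receptor-like kinases were the largest group, with 10 rises and no fall. Chitinases, soluble lectins and immune receptors of the TIR type had 3 rises each and no fall. Cell wall modifying enzymes had 4 falls and no rise. For the family counts below, the figure to set beside them is 76 rises and 31 falls among all 13355 named genes, each read by 1 probe set. Falls were the rarer of these, so the absence of a fall in a short list says little.

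The receptor-like kinases, which sense signals at the plasma membrane, rose by 0.75 to 3.14. AT1G35710, a leucine-rich repeat receptor kinase, read 5.39 and 6.56 in the wild-type arrays and 9.43 and 8.80 in the camta3-1 arrays. It rose by 3.14 ± 0.36 (SE, adjusted p = 0.0131), the largest rise of a receptor kinase here, although its wild-type arrays lay more than 2-fold apart. Its relative AT4G08850, known as MIK2 and as a receptor for small secreted plant and fungal peptides, read 7.44 and 7.54 and then 9.62 and 9.08. The rise was 1.86 ± 0.18 (SE, adjusted p = 0.00868), and the wild-type arrays lay within 0.1 of each other. AT5G59670, whose receptor carries a malectin-like domain beside leucine-rich repeats, went from 5.12 and 5.56 to 8.36 and 7.75. In each of the 3 genes, camta3-1 replicate 1 was the higher mutant array and the groups did not overlap.

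The other 7 receptor kinases came from several families. AT1G66880 rose by 1.88 ± 0.28 (SE, adjusted p = 0.0296), and AT5G39020, another kinase with a malectin-like domain, by 1.82 ± 0.19 (SE, adjusted p = 0.0105). AT4G27300 and AT1G11330, both of the S-locus lectin type, rose by 1.59 and 1.49. Wall-associated kinases, which bind pectin in the cell wall, were listed by locus after the calls were known. Of 9 measured, 2 rose, none fell and the median was 0.03. AT1G69730 rose by 1.09 ± 0.18 (SE, adjusted p = 0.0405) and AT1G16260 by 0.87 ± 0.14 (SE, adjusted p = 0.0426). Cytoplasmic kinases that relay the signals of such receptors had 3 rises, of 0.96 to 1.17, and 1 fall, of AT2G18890, by 0.66. Of the 6 measured genes listed for pattern-triggered immunity, the branch of defence that starts from these receptors, MIK2 rose and the other 5 did not pass.

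Inside the cell, TIR-domain immune receptors recognise pathogen effectors. Of 75 such genes measured, listed by locus after the calls were known, 3 rose and none fell, with a median of 0.08. Over all 13355 named genes 76 rose and 31 fell. AT3G04210 read 7.45 and 7.72 in wild type and 9.45 and 8.83 in camta3-1, a rise of 1.56 ± 0.20 (SE, adjusted p = 0.0204). AT1G17600 rose by 1.05 ± 0.14 (SE, adjusted p = 0.0235), and AT5G11250 by 0.98 ± 0.11 (SE, adjusted p = 0.0111). All others failed to pass. AT3G48080, a near-identical copy of EDS1, which passes on the signal of these receptors, read 4.09 and 4.40 and then 6.27 and 5.60. Its rise was 1.69 ± 0.24 (SE, adjusted p = 0.0262), and the array may not separate it from EDS1 itself. AT5G17760, 1 of 13 measured BCS1-like ATPase genes in another list by locus written after the calls were known, rose by 1.00 ± 0.14 (SE, adjusted p = 0.0241), and the others did not pass.

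Salicylic acid genes were thinly covered. Of 21 genes listed for its synthesis and signalling, 3 were measured and none passed. GRX480, a glutaredoxin gene, had a difference of 0.33. SAG101, a partner of EDS1, read 4.58 and 4.41 in wild type and 5.51 and 4.77 in camta3-1 (adjusted p = 0.3). AT5G52810, which encodes SARD4, an enzyme in the synthesis of the immune signal pipecolic acid, had a difference of 1.15 (adjusted p = 0.223). It read 6.17 and 6.83 in wild type and 8.17 and 7.11 in camta3-1, so the groups did not overlap, but the lower mutant array lay close to the higher wild-type one.

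Genes of calcium signalling rose in 5 cases, by 1.00 to 1.60. GLR1.4, a glutamate receptor-like channel that lets cations into the cell, read 5.38 and 5.13 in wild type and 7.26 and 6.46 in camta3-1, a rise of 1.60 ± 0.25 (SE, adjusted p = 0.0352). It was 1 of 7 measured channels of its family, and the other 6 did not pass. AT4G27280, a small calcium-binding protein with an EF-hand, rose by 1.49 ± 0.12 (SE, adjusted p = 0.00505), and its arrays read 7.20 and 7.04 in wild type against 8.72 and 8.51 in camta3-1. AT2G41090 and AT2G41410, both calmodulin-like, rose by 1.07 and 1.00. They were 2 of 22 measured calmodulin-like genes in a list by locus that was written after the calls were known, with a median of 0.08. The list of calmodulins, calmodulin-like proteins and calcium-dependent kinases by symbol had 7 measured genes, of which none passed, among them CML42 (0.53) and CML23 (-0.16). AT2G26190, which encodes a protein that binds calmodulin, rose by 1.19 ± 0.12 (SE, adjusted p = 0.00868).

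WRKY53, a transcription factor gene known to be induced in senescence and by salicylic acid, read 4.24 and 4.97 in wild type and 6.67 and 7.07 in camta3-1. It rose by 2.26 ± 0.30 (SE, adjusted p = 0.0204) and was the only one of 6 measured WRKY genes that passed. The zinc finger gene STZ, whose product represses transcription under salt and cold stress, read 4.92 and 5.06 and then 6.56 and 6.83, a rise of 1.70 ± 0.20 (SE, adjusted p = 0.0149). In both genes replicate 2 was the higher camta3-1 array, unlike in most other rises. RING1, which encodes a ubiquitin ligase of the plasma membrane that is known to promote cell death in defence, went from 8.14 and 8.26 to 10.61 and 9.86. Its rise was 2.04 ± 0.23 (SE, adjusted p = 0.0118).

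**Figure D2:**
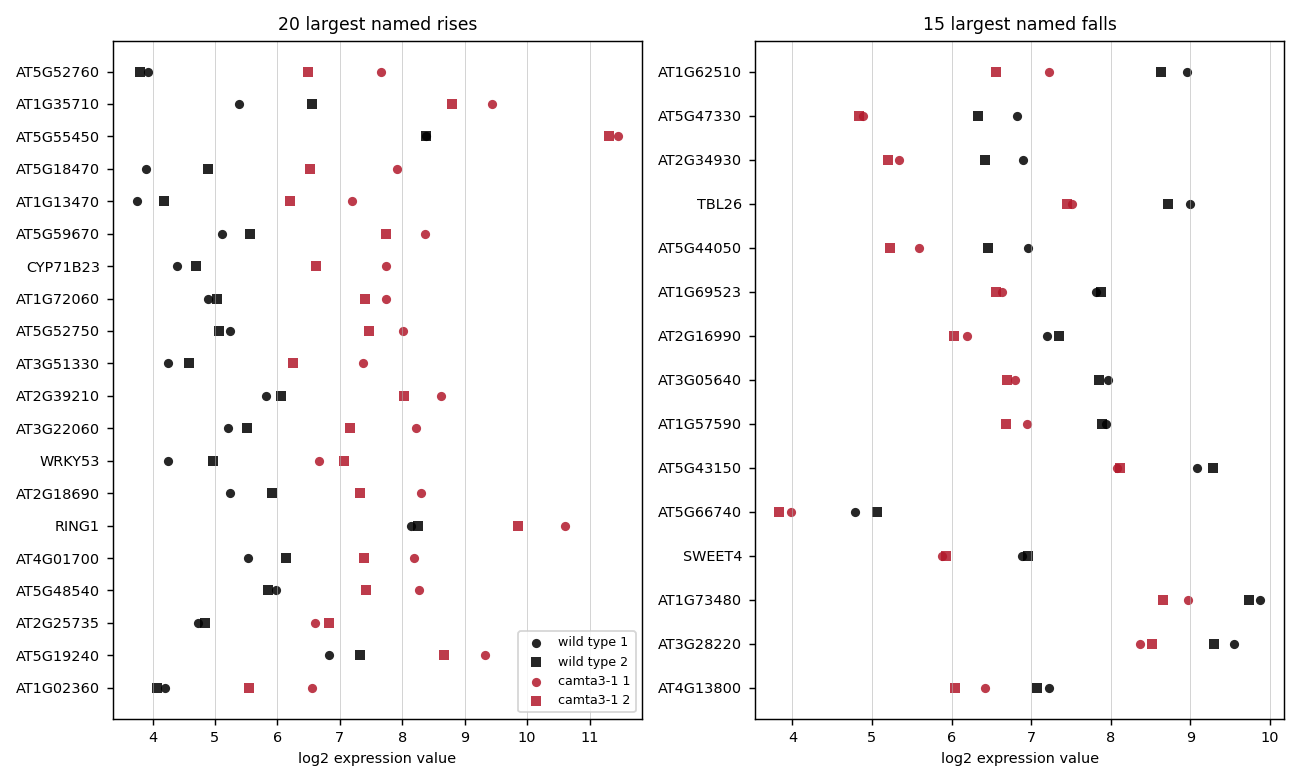
The log2 expression values of the 20 largest named rises (left) and the 15 largest named falls (right) are shown in each array, in black for wild type and red for camta3-1, with circles for replicate 1 and squares for replicate 2. No red point lies among the black points of its gene, and the red circle lies right of the red square in all but 2 of the 20 rises (WRKY53 and AT2G25735).

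Of 8 genes listed for pathogenesis-related and secreted defence proteins, 1 was measured and it did not pass. Of 15 chitinase genes measured, listed by locus once the calls were known, 3 rose and none fell, with a median of 0.30. AT4G01700 read 5.52 and 6.14 in wild type and 8.20 and 7.39 in camta3-1, a rise of 1.96 ± 0.31 (SE, adjusted p = 0.0393). AT1G02360 rose by 1.91 ± 0.28 (SE, adjusted p = 0.0311), and AT2G43590 by 0.99 ± 0.14 (SE, adjusted p = 0.0277). The 1 measured gene of the pathogenesis-related list was CHI (AT2G43570), also of the chitinase family. CHI had a larger difference, 2.57, but its camta3-1 arrays read 9.93 and 8.30 and it missed the threshold (adjusted p = 0.0672). Replicate 1 was the high array there, as in AT4G01700 and AT1G02360.

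Among soluble lectins, which bind sugars, AT5G18470 read 3.89 and 4.88 in wild type and 7.91 and 6.52 in camta3-1. Its rise of 2.83 ± 0.46 (SE, adjusted p = 0.0422) was the fourth largest of the named genes, and the arrays of each group lay far apart. AT3G16530 rose by 1.76 ± 0.29 (SE, adjusted p = 0.0436). AT5G03350, already bright in wild type at 10.60 and 10.99, rose by 1.53 ± 0.19 (SE, adjusted p = 0.0163). The secreted cysteine-rich repeat proteins AT3G22060 and AT5G48540 rose by 2.33 and 1.94. AT3G51330, an aspartyl protease gene, and AT5G19240, whose product is held at the membrane by a lipid anchor, rose by 2.40 and 1.93.

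Among the 20 largest named rises, AT5G55450, a lipid-transfer type protein, had the smallest SE. It read 8.39 and 8.38 in the wild-type arrays and 11.46 and 11.31 in the camta3-1 arrays. This rise of 3.00 ± 0.12 (SE, adjusted p = 4.00e-04) is about 7.98-fold, and it passed when any 1 of the 6 arrays was left out, with adjusted p up to 0.025. It did not pass without moderation (adjusted p = 0.327). The largest named rise was AT5G52760, which encodes a protein with a heavy-metal-associated domain. It read 3.92 and 3.79 in wild type and 7.66 and 6.49 in camta3-1, a rise of 3.22 ± 0.33 (SE, adjusted p = 0.00956). Its neighbour AT5G52750, of the same tandem, rose by 2.59 ± 0.22 (SE, adjusted p = 0.0056), while the other 4 measured genes of the tandem did not pass.

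CYP71B23, a cytochrome P450, read 4.39 and 4.70 in wild type and 7.75 and 6.62 in camta3-1 and rose by 2.64 ± 0.35 (SE, adjusted p = 0.0211). CYP71B22, the next gene on the chromosome, rose by 0.96 ± 0.11 (SE, adjusted p = 0.0131). These were the only 2 of 26 measured P450 genes with a family symbol that passed. A further P450 gene, AT3G44970, which carries no such symbol, fell by 0.91. AT2G39210, a membrane transporter gene of the major facilitator type, went from 5.81 and 6.05 to 8.62 and 8.02, a rise of 2.39 ± 0.21 (SE, adjusted p = 0.0056). It was the only gene put down as a transporter among the rises with a role. For AT1G13470, AT1G72060, AT2G18690 and AT2G25735, which are also among the 20 largest rises, no role is given here. They rose by 2.74, 2.61, 2.22 and 1.93.

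**Figure D3:**
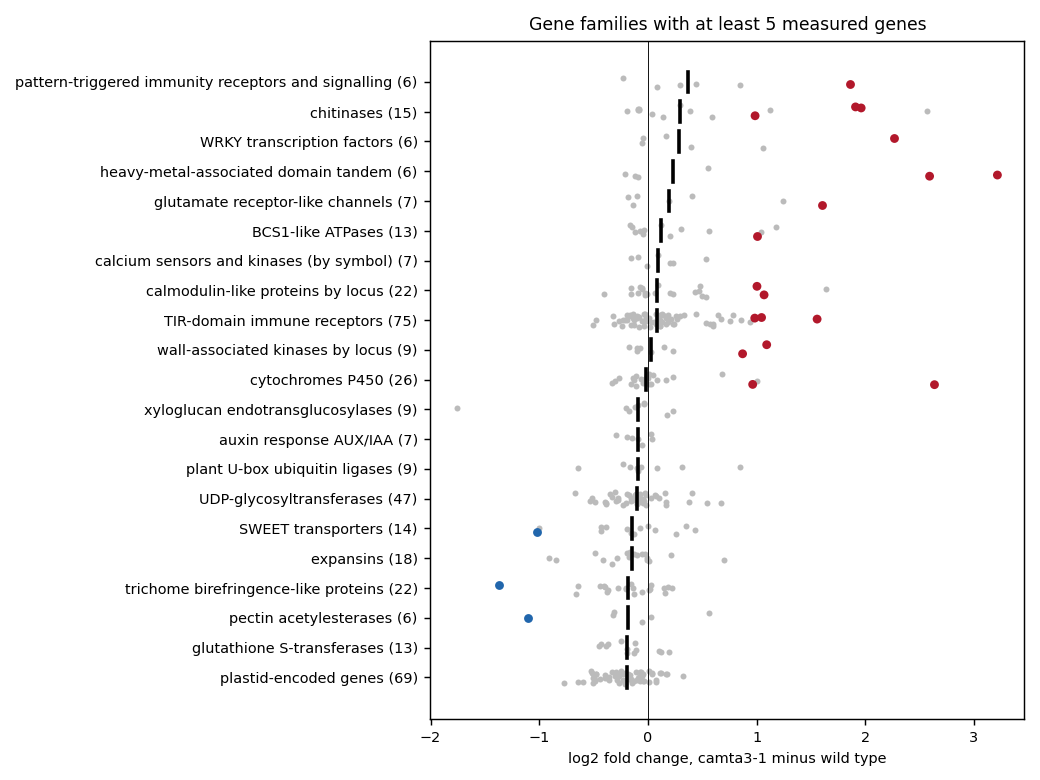
Each point is a gene of a family or list with at least 5 measured genes (number in brackets, anther and tapetum genes not shown), placed by its log2 fold change of camta3-1 against wild type. Red points rose and blue points fell at an adjusted p of 0.05, grey points did not pass, and black bars are medians, which stay between -0.20 and 0.37 while a few coloured points in a family lie far from them.

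The falls were smaller, and the groups with more than 1 member were enzymes of the cell wall, transporters and GDSL lipase-type enzymes. The cell wall enzymes act on different polymers. TBL26, of a family of enzymes that add acetyl groups to wall polysaccharides, read 9.00 and 8.72 in wild type and 7.51 and 7.46 in camta3-1. It fell by 1.37 ± 0.16 (SE, adjusted p = 0.0131) and was the only one of 22 measured family members that passed. AT1G57590, a pectin acetylesterase, went from 7.93 and 7.89 to 6.95 and 6.68 and fell by 1.10 ± 0.13 (SE, adjusted p = 0.0151). The cellulase-family gene GH9B8 fell by 0.88 ± 0.14 (SE, adjusted p = 0.0386), and the pectin methylesterase gene AT3G43270 by 0.83 ± 0.11 (SE, adjusted p = 0.0235). None of 18 measured expansins, which loosen the wall during growth, and none of 9 xyloglucan endotransglucosylases passed. In the latter family XTH19 had a difference of -1.75, but its wild-type arrays read 4.24 and 6.36, and without wild-type replicate 1 it passed.

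Transporters fell in 4 cases. AT5G44050, of the MATE family that moves small molecules out of the cytosol, read 6.96 and 6.46 in wild type and 5.58 and 5.23 in camta3-1 and fell by 1.30 ± 0.20 (SE, adjusted p = 0.0332). SWEET4, a sugar transporter, went from 6.89 and 6.96 to 5.88 and 5.92, with arrays of a group less than 0.1 apart. Its fall was 1.02 ± 0.11 (SE, adjusted p = 0.0111), and the other 13 measured SWEET genes did not pass. AT2G16990, of the major facilitator type, fell by 1.17 ± 0.16 (SE, adjusted p = 0.0258), and the sugar transporter gene AT1G67300 by 0.64 ± 0.11 (SE, adjusted p = 0.0479).

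The largest named fall was AT1G62510, which encodes a protein of the lipid-transfer type. It read 8.96 and 8.64 in wild type and 7.22 and 6.56 in camta3-1 and fell by 1.91 ± 0.25 (SE, adjusted p = 0.0203). AT5G47330, of the alpha/beta hydrolase fold, went from 6.82 and 6.33 to 4.89 and 4.84, a fall of 1.71 ± 0.17 (SE, adjusted p = 0.00868). AT2G34930, whose product has leucine-rich repeats and no kinase, fell by 1.39 ± 0.22 (SE, adjusted p = 0.0357). In these 3 genes wild-type replicate 1 was the higher wild-type array, and even the lower one lay well above both camta3-1 arrays. AT1G69523, a methyltransferase gene, fell by 1.25 ± 0.11 (SE, adjusted p = 0.00606), and AT3G05640, a protein phosphatase gene of the 2C type, by 1.16 ± 0.16 (SE, adjusted p = 0.0241). The phosphatase gene AT1G34750 of the same type rose by 1.15.

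The remaining large falls, AT5G43150, AT5G66740, AT1G73480, AT3G28220 and AT4G13800, lay between -1.09 and -0.91. The GDSL lipase-type genes AT3G48460 and AT4G26790 fell by 0.87 and 0.83. Among smaller falls were CLE26, which encodes a signalling peptide, by 0.72, AFR, an F-box protein gene of phytochrome A signalling, by 0.74, and the beta-glucosidase gene BGLU33, by 0.76. AT5G05890, a UDP-glycosyltransferase gene, fell by 0.82, and it is not among the 47 measured genes with a UGT symbol, none of which passed.

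Several lists linked to growth, cold and light had no gene that passed, but some were thinly covered. Measured were 3 of 11 genes listed for cold response and 2 of 12 for jasmonate. For nuclear-encoded photosynthesis it was 2 of 16, and for the circadian clock 1 of 8. The absence of a call among so few genes says little about a pathway. The 3 measured genes of the cold-response list lay lower in both camta3-1 arrays than in both wild-type arrays, where 29.1% of all probe sets did so. LTI30, a cold-induced gene outside that list, had a difference of -1.67 and did not pass either. COR15A, which encodes a protein that protects chloroplast membranes in the cold, read 11.95 and 11.79 in wild type and 10.43 and 10.37 in camta3-1, a difference of -1.47 that just missed the threshold (adjusted p = 0.0522). COR15B had a difference of -0.71 (adjusted p = 0.175). The jasmonate-responsive defence genes THI2.1 and PDF1.2 had differences of -1.30 and -0.84, and PDF1.2 read 6.03 and 8.54 in the wild-type arrays, which is a larger gap than that between the groups. Of 69 genes encoded in the plastid genome, none passed, and those of smallest p, atpF and ndhK, had differences of -0.50 and -0.49. Their median was -0.20, with 37 lower in both camta3-1 arrays, where the median of all probe sets was -0.04 and 29.1% of all probe sets were lower in both. The median was -0.34 without wild-type replicate 1 and -0.06 without replicate 2.

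The other lists are covered by their members of smallest p, none of which passed. Of 15 listed aliphatic glucosinolate genes 2 were measured. BCAT4, which starts the chain elongation of methionine, and AT2G31790 had differences of -0.59 and -0.40. The glutathione S-transferase genes GSTF4 and GSTU20 had differences of -0.45 and -0.39, and the glycosyltransferase genes UGT85A7 and UGT84A3 of -0.53 and -0.38. In each of these 6 genes both camta3-1 arrays lay below both wild-type arrays, as they did in 29.1% of all probe sets. The 6 were picked for their small p, which favours such a separation. In the full lists it held for 19 of 47 UDP-glycosyltransferases and 7 of 13 glutathione S-transferases. The U-box ubiquitin ligase genes PUB24 and PUB19 lay on opposite sides, at 0.84 and -0.64, as did the expansin genes EXPA8 and EXPB1, at 0.70 and -0.49. Of the 18 measured expansins, 3 had a positive and 15 a negative difference, where 8100 of all 13355 named genes had a negative one. Only 1 of 11 listed ethylene genes was measured. Differences of the remaining members of smallest p were small. They were 0.24 for the ethylene transcription factor gene EIN3, 0.07 for the clock gene GI, -0.01 for the light-harvesting gene LHCB4.1 and -0.07 for NAC014. They were -0.19 for IAA18 and -0.15 for IAA30, both auxin response genes, and -0.20 for XTH26.

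The camta3-1 arrays differed from each other in how far the called probe sets lay from wild type. Among the 183 rises, replicate 1 was higher than replicate 2 in 168 (91.8%), with a median difference of 0.41, whereas over all probe sets it was higher in 49.0%. Over the same rises, replicate 1 was the higher array in 29% in wild type and in 64.5% in camta3-2. After cyclic loess normalization of the 6 arrays the share in camta3-1 was again 91.8%. Among the probe sets that rose when replicate 1 was left out of the comparison, it was still 83.3%. Among the 63 falls replicate 1 was also the higher array in 69.8%, which for a fall is the smaller difference from wild type, with a median gap of 0.08. Over the same falls, replicate 1 of wild type was the higher in 69.8% as well. The arrays of camta3-1 were at least 2-fold apart for 133 probe sets. Replicate 1 was the higher in 56 of them, of which 16 were called, and replicate 2 in 77, of which none was called. Of these 77, 35 were also at least 2-fold higher in replicate 2 of camta3-2 than in its replicate 1.

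**Figure D4:**
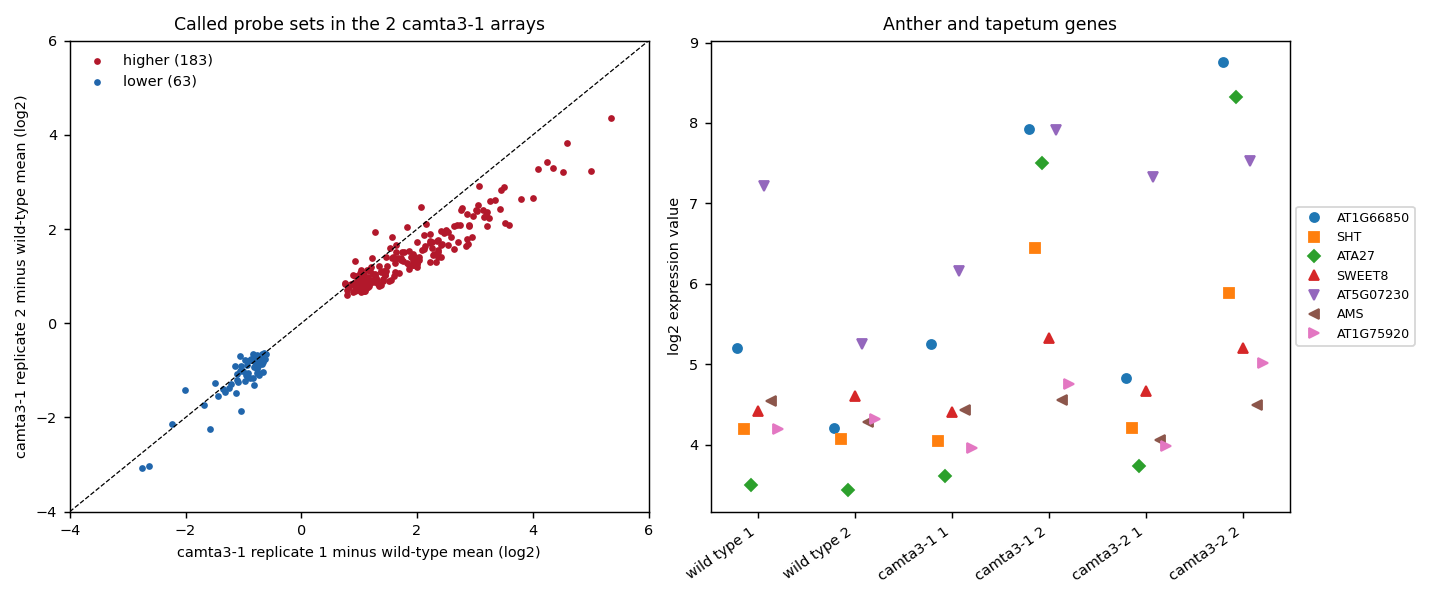
On the left, each of the 246 called probe sets is placed by its difference from the wild-type mean in camta3-1 replicate 1 (horizontal) and replicate 2 (vertical), in log2 units, with a dashed line where both are equal and 168 of the 183 red points below it. On the right, the log2 values of the 7 anther and tapetum genes are shown in each of the 6 arrays, with ATA27 at 7.50 in camta3-1 replicate 2 and 3.60 in replicate 1.

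Whether camta3-1 differed from the other allele was tested directly, as camta3-2 minus camta3-1 in the same fit. Of 22746 probe sets, 1 passed (0.0044%), and 1442 did so at an unadjusted p of 0.05 (6.34%). None of the 246 probe sets called in camta3-1 passed this test, the smallest adjusted p among them being 0.597, so no change was shown to be particular to camta3-1. This does not show that the alleles act alike. All 246 lay on the same side of wild type in the camta3-2 mean as in camta3-1. The largest named rises, AT5G52760 and AT1G35710, were 3.22 and 3.14 in camta3-1 and 3.00 and 3.06 in camta3-2. Both alleles were compared with the same wild-type arrays, which favours a shared direction. The 246 were also chosen on the camta3-1 arrays, which enter the difference between the alleles.

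The named genes given next are those furthest apart between the alleles among the genes called in camta3-1, 5 in each direction. Because they were called in camta3-1, values nearer to wild type in camta3-2 are favoured by that choice. AT1G72060 read 4.89 and 5.03 in wild type, 7.74 and 7.40 in camta3-1 and 6.32 and 5.79 in camta3-2, a difference between the alleles of -1.51 ± 0.20 (SE). AT2G43590 read 6.24 and 6.12 in wild type, 7.31 and 7.02 in camta3-1 and 6.35 and 6.12 in camta3-2, so that camta3-2 and wild type overlapped for this chitinase gene. For AT5G55450 the camta3-2 arrays read 10.62 and 10.45, which is -0.85 ± 0.12 (SE) relative to camta3-1 and still above both wild-type arrays. AT1G02360 and AT1G65500 differed by -1.07 and -0.84 in the same direction.

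Among the falls, TBL26 read 8.64 and 8.27 in camta3-2, a difference of 0.97 ± 0.16 (SE) from camta3-1, and AT1G57590 read 7.69 and 7.51, a difference of 0.78 ± 0.13 (SE). AT1G73480 and SWEET4 differed by 0.64 and 0.55. STZ was the exception, since it was higher in camta3-2, at 7.03 and 7.65, than in camta3-1, by 0.65. None of these differences passed the test, with adjusted p from 0.597 to 0.779. Some named genes were at least 2-fold from wild type in camta3-1 but not called. Of these, AT4G17470 (1.53) and SAG29 (1.47) lay further upward in camta3-2 than TBL26 did. AT2G15220 (-1.19) lay downward, by less than AT1G72060 (-1.51). None of these differences between the alleles passed either.

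The probe set that did pass between the alleles was that of QQS, a gene found only in Arabidopsis and named for the starch content of plants in which it is reduced. It read 6.37 and 6.16 in wild type, 5.81 and 5.86 in camta3-1 and 8.72 and 8.95 in camta3-2. The difference between the alleles was 3.00 ± 0.13 (SE), with an adjusted p of 8.36e-04 by limma. In camta3-1 it lay 0.43 below wild type, which did not pass (log2 fold change -0.43, adjusted p = 0.23), while both camta3-2 arrays lay far above all other arrays.

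**Figure D5:**
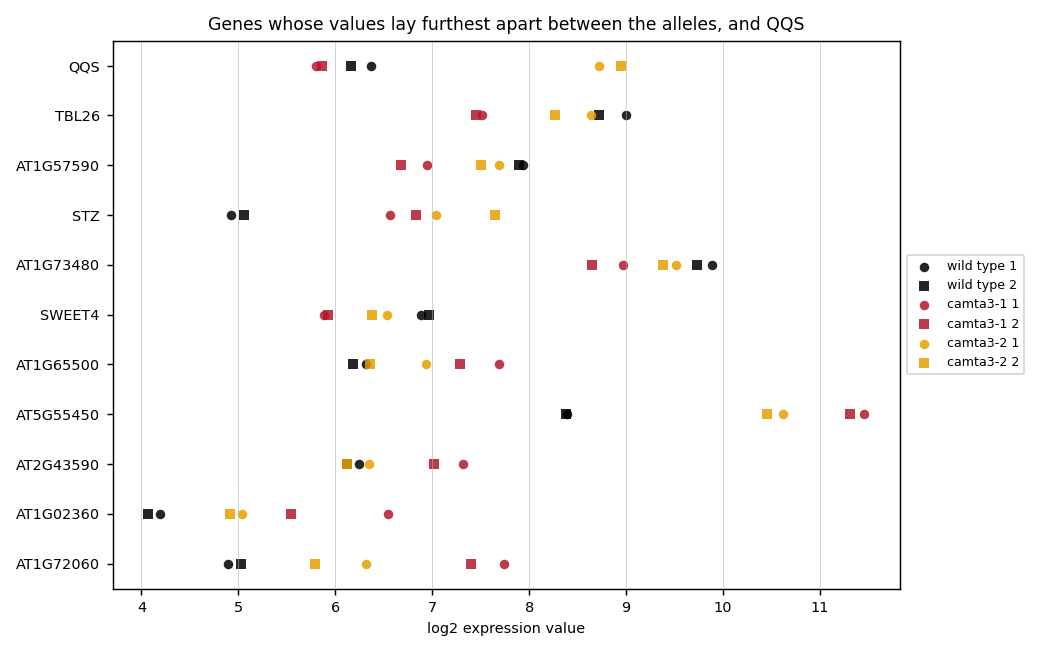
The log2 expression values of QQS and of the 10 genes called in camta3-1 whose values lay furthest apart between the alleles, 5 in each direction, are shown in each of the 6 arrays, in black for wild type, red for camta3-1 and yellow for camta3-2, with circles for replicate 1 and squares for replicate 2. The camta3-2 points lie between the other groups or at wild type for most genes, and far to the right for QQS at 8.72 and 8.95.

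Called genes lay on all 5 chromosomes. Between 0.645% and 0.938% of the named genes measured on each of the 5 chromosomes passed. Of 48 called genes that are followed by a measured gene, 2 formed a pair in which both passed, where 0.792% of all probe sets with 1 gene passed. The pairs were AT5G52750 with AT5G52760 and CYP71B22 with CYP71B23, each of 1 gene family. Among the 100 genes on either side of CAMTA3, 88 were measured and none passed, with a median log2 fold change of -0.03. At a share of 0.792% few or none would be due among so few genes.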

How the data were processed

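Total RNA of 3-week-old plants was measured on 6 Affymetrix arrays, with 2 biological replicates of wild type and of each of the mutant alleles camta3-1 and camta3-2. The authors processed the scans with RMA and Partek, per the submitters' processing notes, and deposited 1 log2 value for each array and probe set. No tool version is named there. RMA makes the distributions of the arrays alike and shrinks differences of dim probe sets. Precision is limited by having so few arrays. The SE of a camta3-1 fold change had a median of 0.13.

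Control probe sets (64) were left out and 22746 were tested with no filter. A model with 1 mean per group was fitted to all 6 arrays with limma 3.58.1 in R 4.3.3, with 3 residual and 4.43 prior degrees of freedom. Contrasts were tested two-sided with empirical Bayes moderation. A probe set passed at an adjusted p of 0.05 (Benjamini-Hochberg, over all 22746). Errors of fold changes are the SE of this fit, over 2 arrays a group. Probe sets were named from the platform annotation, and locus names come from a RefSeq gene table (TAIR10.1, used for names and gene order). The annotation left 8730 probe sets without a gene, paired 503 with several and 13513 with 1, and 13436 of the last had a locus. Where several probe sets shared a gene, the brightest stood for it.

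The members and lists were chosen with earlier results of these data known. By rule, the text names the 20 largest rises and 15 largest falls with 1 gene, for each list up to 4 called members (or, if it had none, the 2 of smallest p), the CAMTA genes, and, among the genes called in camta3-1, the 5 largest differences between alleles in each direction. Other named genes were chosen after their values were seen. Of 47 lists, 38 were written with the design (9 had no measured gene), and the pattern for plastid genes was corrected once the files were in hand. The other 9, with loci recalled without a curated table, and the roles of called genes were written after the calls were seen. Replicate numbers were not used as pairs, since deviations of same-numbered arrays correlated at -0.04 for camta3-1 and wild type. They correlated at 0.40 for camta3-1 and camta3-2 and at 0.13 for camta3-2 and wild type, so not every pair was over 0.1.

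Data for camta3-1 against wild type were also simulated over 22746 probe sets, with independent noise of the fitted spread in each array. There the fit recovered 97% of log2 changes of 1 and 100% of log2 changes of 2, and 20 of its 217 calls were false. The simulation held no deviation shared by arrays, while same-numbered camta3-1 and camta3-2 arrays deviated together (correlation 0.40). Its shares therefore do not say how many calls in the real data are right. Other settings tried were each array left out in turn, the replicate number as a block, the 4 arrays alone, 2 other normalizations, a filter on dim values, other moderation, array weights and other thresholds. Promoter elements and protein sequences were not analysed here. Python 3.11.15, pandas 2.3.3 and matplotlib 3.10.9 were used for summaries and figures.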

Additional observations from a re-analysis of the deposited data

Results flagged for a closer look

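QQS differed between the alleles, with a value in camta3-2 that lay 3.00 above camta3-1 on the log2 scale. The difference itself was tested in the fit over all 6 arrays and passed with an adjusted p of 8.36e-04 (limma). The 2 camta3-2 arrays lay above the other 4 arrays, and the camta3-1 arrays lay below both wild-type arrays.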

How the results depend on the processing

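The 246 calls for camta3-1 against wild type came from 2 arrays a group, and the count moved widely with the setting. With the replicate number as a block it was 430, of 283 rises and 147 falls. It was 112 when only probe sets with 1 gene were tested, 37 at an adjusted p of 0.01 and 466 at 0.1. Without moderation it was 0 (2174 at an unadjusted p of 0.05). Cyclic loess gave 260, median centring 288 with 188 rises and 100 falls, a filter at log2 5.33 on the mean 312, a trended and robust prior 334, array weights 336, the 4 arrays alone 202 and a fold of at least 2 gave 171. Leaving out each array in turn gave 2 to 333 calls. A group left with 1 array was then assumed to vary like the others. No named gene changed direction while called. Of the 49 named genes that were called, 48 lost the call without wild-type replicate 1, 43 without replicate 2, 25 without camta3-1 replicate 1 and 7 without camta3-1 replicate 2. For the difference between the alleles, leaving out an array gave 1 to 7 calls, with 2 without camta3-2 replicate 1 and 7 without camta3-2 replicate 2. For the lists, 23 called members became 1 to 35 when an array was left out. The filter on dim values removes members, and under it the medians of 13 lists moved and those of 9 stayed the same. That of the chitinases moved from 0.30 to 1.05. The filter used the mean over all arrays, those of the mutants included. A gene dim in wild type could therefore pass through a rise in the mutants, while an equally dim gene without a rise was removed. This favours higher medians, so the move says nothing about the chitinases as a family. Probe sets with no named gene held 133 of the 246 calls, so counts of families cover a part of the array.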

Other observations

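Many named genes differed by at least 2-fold in their means without passing the test. Of 73 such genes, 49 were higher and 24 lower in camta3-1. In 18 of the 49, the camta3-1 arrays were at least 2-fold apart. AT4G17470, a thioesterase-family gene, had the largest difference downward, at -3.29, with 8.94 and 7.47 in wild type and 4.78 and 5.05 in camta3-1. The cold-induced dehydrin gene LTI30 had a difference of -1.67, with 9.98 and 9.22 in wild type and 8.08 and 7.79 in camta3-1. DFR, which encodes an enzyme of anthocyanin synthesis, had a difference of -1.23.

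Among the called probe sets, the largest rise and the largest fall had no gene name. Of the probe sets that rose, 103 had no gene in the annotation, with a median of 1.66, and 39 of them rose at least 4-fold, against 15 of the 76 with 1 gene. The largest reached 4.86. Of those that fell, 30 had no gene, and the lowest was at -2.91.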
